A study of Solanum lycopersicum with 36 samples.

Results

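The 150 genes described here are root genes of tomato whose level fell under nitrogen supply in both histone methyltransferase mutants, *sdg33* and *sdg34*, while the wild type (WT) response stayed small. They were chosen from 35872 listed genes and loci, of which 16250 had a mean root value of at least 50 and 11161 of these also had an absolute WT response under 0.5 on the log2 scale. Among those 11161, the 150 with the most negative response in the mutant that responded less were taken. The root responses to nitrogen therefore come from the choice itself. The root differences between mutants and WT are tied to it, although the choice does not set them in either medium. Both are given as description, without a test. The shoot libraries were not used in the choice, and the tests below are mainly on shoots. The labels do not say whether root and shoot libraries came from the same plants.

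The study compared tomato cultivar CastlemartII carrying CRISPR edits in *SDG33* or in *SDG34* with the unedited cultivar. Hydroponic plants of all 3 genotypes were starved of nitrogen and then moved to a nitrogen-containing medium (+N) or to a nitrogen-free one (-N). The +N medium held nitrate at 2.8 mM and ammonium at 0.2 mM. In the -N medium sulfate salts took the place of the nitrate salts, and potassium phosphate that of ammonium phosphate. The media thus differed in sulfate as well as in nitrogen. Effects of nitrogen named below are differences between these media, and the part of sulfate in them was not tested. Roots and shoots were harvested 5 h after the move. RNA sequencing gave 36 libraries in 12 groups of 3, and each library pooled 3 plants. One edited line stood for each mutant, so a mutant and its line cannot be told apart.

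SDG33 and SDG34 belong to the SET-domain family of histone methyltransferases, enzymes that place methyl groups on lysines of histone H3 and are related to SDG8 of Arabidopsis. Methylation of histone H3 can go with active or with silent genes, depending on the lysine, and SDG8 of Arabidopsis is known for marks that go with active transcription. Roots sense nitrate directly, and within hours of supply they raise genes for nitrate uptake and reduction and lower many others.

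The deposited values were whole numbers that the authors had normalized so that all 36 libraries held the same set of values, with a shared total of 19667069, so the sequencing depth of a library is unknown. As a check of the organ labels, 6 photosystem genes summed to between 194 and 626 in root libraries and to between 17855 and 97908 in shoot libraries. Their root sum was not alike in the genotypes: it was 512 to 626 in *sdg33*, 421 to 565 in *sdg34* and 243 to 343 in WT at +N, and 350 to 359, 285 to 350 and 194 to 252 at -N in the same order of genotypes. Most of that difference lay in Solyc01g087040.2, a photosystem II gene, while 4 of the 6 had at most 12 in any root library, and its part in the results below was not tested. The *SDG33* transcript had 348, 359 and 319 normalized counts in *sdg33* roots at +N, against 446, 442 and 392 in WT roots, with no overlap. The *SDG34* transcript had 104, 104 and 174 in *sdg34* roots at +N, against 160, 130 and 143 in WT roots, which overlapped. In bulk tissue, fewer cells of a type and less RNA per cell cannot be told apart.

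In roots the 150 genes had a median N response, log2 of +N over -N, of -1.08 in *sdg33*, -1.36 in *sdg34* and -0.28 in WT. The medians over the 11161 genes open to the choice were -0.04, -0.03 and -0.02. The responses ran from -2.51 to -0.91 in *sdg33*, from -2.93 to -0.93 in *sdg34* and from -0.50 to 0.40 in WT. The WT response was small but seldom upward, since it was below 0 for 127 of the 150 genes, against 5838 of the 11161. The response was the more negative in *sdg34* for 122 of the 150, against 5256 of the 11161. Both counts are tied to the choice. All 3 libraries at +N lay below all 3 at -N for 146 genes in *sdg33* (30.7% of the 16250 genes), for 147 in *sdg34* (33.2%) and for 61 in WT (29.9%). At the edge of the choice there was no gap. The last genes taken, Solyc01g094210.2, Solyc10g081500.1 and Solyc02g063255.1, had -0.91 in the mutant that responded less, and the next ones not taken, Solyc04g071085.1, Solyc04g015360.3 and Solyc03g111170.3, had -0.91, -0.90 and -0.90.

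**Figure D1:**
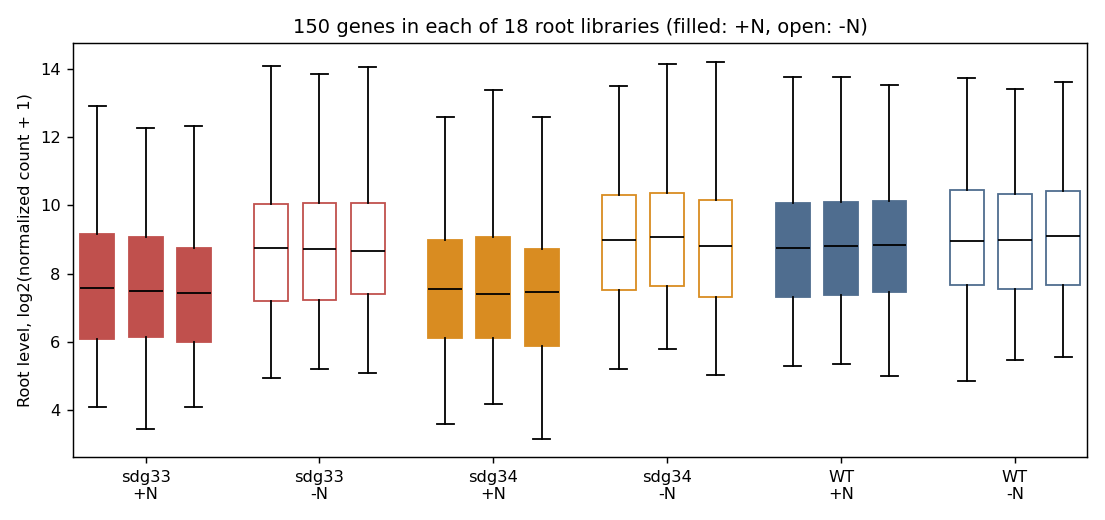
Root level of the 150 genes in each of the 18 root libraries, as log2(normalized count + 1). Boxes span the quartiles with the median as a line, whiskers reach the farthest gene within 1.5 times the box height and genes beyond are not drawn, filled boxes are +N and open boxes -N. The medians of the mutant libraries at +N lie between 7.41 and 7.58, and those of WT at +N between 8.74 and 8.85.

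The low point of the pattern was the +N level in the mutants. Over the 150 genes the median root level per library, on the log2 scale, was 7.42 to 7.58 in *sdg33*, 7.41 to 7.55 in *sdg34* and 8.74 to 8.85 in WT at +N. At -N it was 8.67 to 8.75 in *sdg33*, 8.80 to 9.08 in *sdg34* and 8.96 to 9.10 in WT. The median difference from WT was -1.20 in *sdg33* and -1.18 in *sdg34* at +N, and -0.24 and -0.06 at -N. The matching medians over the genes open to the choice were -0.02 and -0.03 at +N, and 0.01 and 0.01 at -N.

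Gene by gene, the libraries of both mutants lay wholly below WT at +N for 124 of the 150 genes, where 27.9% of the 16250 genes did so, and wholly above for 0, where 22.7% did so. Taken singly, *sdg33* lay below WT at +N for 126 genes (33.3% of all) and above for 1 (28.8%), and *sdg34* below for 129 (34.6%) and above for 1 (27.3%). At -N both mutants lay below WT for 43 genes (16.2% of all) and above WT for 16 (16.6% of all). Taken singly at -N, *sdg33* lay below WT for 69 genes (23.6%) and above for 20 (24.8%), and *sdg34* below for 45 (22.1%) and above for 28 (22.4%). All of these counts are tied to the choice. Over the media together, 43 genes had both mutants below WT in both (11.7% of the 16250 genes). Another 41 had both mutants overlapping WT at -N and below it at +N (8.28% of all), and 38 had the mutants placed unlike each other at -N and both below WT at +N (7.46% of all). Of the 16 genes with both mutants above WT at -N, 2 had both below WT at +N (0.4% of all) and 9 had both overlapping WT at +N (2.46% of all). The remaining genes were placed unlike by the 2 mutants at +N, or had both mutants overlapping WT at +N without both being above it at -N.

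**Figure D2:**
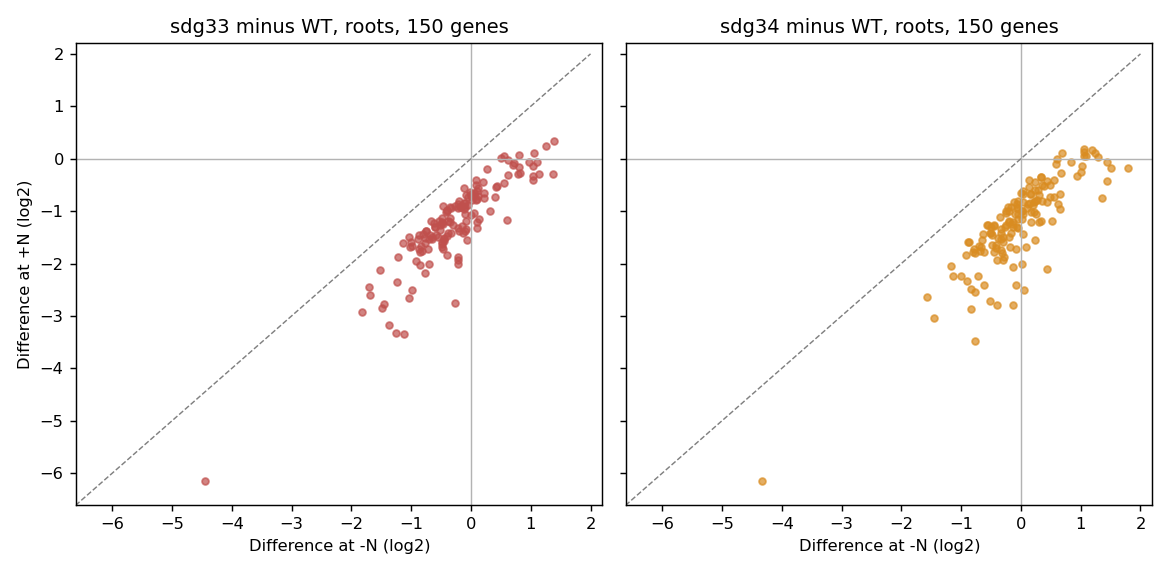
Root difference from WT at +N (vertical axis, log2) against that at -N (horizontal axis, log2) for the 150 genes, *sdg33* left and *sdg34* right, each point 1 gene. All points lie below the dashed line of equal differences, as the choice requires, and the single point at the lower left is Solyc03g096770.1, with -6.15 and -6.16 at +N.

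Descriptions were given in the study's supplementary gene lists for 15 of the 150 genes, against 404 of the 11161 genes open to the choice. Those lists were drawn up by the study from genes that changed on these same samples, chiefly in shoots, so the large shoot effects of these 15 are no independent evidence. They comprise 3 transcription factors, 2 transport proteins, 4 genes of cell wall or sugar transfer, 1 enzyme of phenylalanine synthesis, 1 oxygenase, 1 auxin-induced gene, 1 dehydrin, 1 sulfur-response gene and 1 lipid-transfer-type protein. Both mutants lay below WT at +N for 12 of the 15, where 27.9% of the 16250 genes and 82.7% of the 150 did so. These counts are tied to the choice. At -N they lay below WT for 8 (16.2% of all) and above WT for 3 (16.6% of all).

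Among the transcription factors, the zinc finger gene Solyc09g074780.3, whose Arabidopsis counterpart is an indeterminate-domain factor, had the strongest response of any described gene. Its root level was 31, 26 and 17 normalized counts in *sdg33*, 41, 50 and 36 in *sdg34* and 292, 218 and 240 in WT at +N. At -N it was 128, 129 and 169 in *sdg33*, 194, 198 and 199 in *sdg34* and 384, 270 and 366 in WT. Both mutants lay below WT in both media with no overlap, and the N response was -2.51 in *sdg33*, -2.20 in *sdg34* and -0.44 in WT. It was nearly absent from shoots, with at most 10 normalized counts in any library, and was not tested there.

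The R2R3-type factor MYB59, Solyc06g005330.3, behaved alike at +N but not at -N. It had 29, 15 and 29 normalized counts in *sdg33* roots, 22, 31 and 27 in *sdg34* roots and 108, 90 and 136 in WT roots at +N. At -N it had 52, 66 and 50 in *sdg33* roots, 97, 155 and 60 in *sdg34* roots and 74, 108 and 108 in WT roots, so that *sdg33* stayed below WT while *sdg34* overlapped it. In shoots it was lower in both mutants, with a log2 difference averaged over both media of -2.96 ± 0.22 in *sdg33* and -2.22 ± 0.18 in *sdg34* (SE, limma adjusted p = 4.5e-08 and 1.2e-07). The other MYB gene, Solyc09g014250.3, had an N response of -1.02 in *sdg33* roots, -1.07 in *sdg34* roots and -0.17 in WT roots, and lay below WT in both mutants and both media. Its shoot difference was -2.11 ± 0.15 in *sdg33* and -1.46 ± 0.11 in *sdg34* (SE, limma adjusted p = 4.2e-08 and 6.8e-08).

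Of the transport proteins, the potassium channel Solyc01g104030.3, related to a channel of the Arabidopsis phloem, had 514, 634 and 344 normalized counts in *sdg33* roots, 712, 721 and 405 in *sdg34* roots and 904, 1030 and 920 in WT roots at +N. At -N it had 977, 990 and 960 in *sdg33* roots, 1270, 1587 and 1478 in *sdg34* roots and 1354, 1116 and 1428 in WT roots. Both mutants were below WT at +N, and *sdg34* overlapped WT at -N. In shoots it was lower in both mutants, with a difference of -2.14 ± 0.15 in *sdg33* and -1.20 ± 0.10 in *sdg34* (SE, limma adjusted p = 2e-08 and 1.4e-07). The GDP-mannose transporter Solyc01g008690.3, of a family that carries nucleotide sugars into the Golgi, had 10 to 29 normalized counts in *sdg33* roots, 19 to 30 in *sdg34* roots and 98 to 126 in WT roots at +N, and at most 6 in any shoot library.

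The genes that build or cut the cell wall did not share 1 pattern. The beta-1,3-glucanase Solyc01g008620.3, of a family that hydrolyses glucans of plant and fungal walls, was above WT at -N. It had 2172, 1147 and 1610 normalized counts in *sdg33* roots, 2014, 1545 and 1660 in *sdg34* roots and 1620, 2160 and 2144 in WT roots at +N, where the genotypes overlapped. At -N it had 6041, 4542 and 7506 in *sdg33* roots, 8904, 7632 and 7136 in *sdg34* roots and 2464, 1918 and 2506 in WT roots. The xylosidase gene LEXYL2, Solyc01g104950.3, whose product removes xylose from wall polysaccharides, was also above WT in both mutants at -N. It had 2618, 2112 and 1974 in *sdg33* roots, 1761, 1834 and 1459 in *sdg34* roots and 1852, 1708 and 1720 in WT roots at +N. At -N it had 4341, 4776 and 4101 in *sdg33* roots, 4819, 4717 and 4140 in *sdg34* roots and 1430, 1998 and 1646 in WT roots. At +N *sdg33* lay above WT and *sdg34* overlapped it.

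In contrast, XTH6, Solyc11g066270.2, a xyloglucan endotransglucosylase that cuts and rejoins wall xyloglucan, overlapped WT at -N and lay below it at +N. It had 3134, 3792 and 3730 normalized counts in *sdg33* roots, 2580, 2550 and 2963 in *sdg34* roots and 6015, 6090 and 6218 in WT roots at +N. In shoots XTH6 was lower, with a difference of -2.67 ± 0.17 in *sdg33* and -2.09 ± 0.13 in *sdg34* (SE, limma adjusted p = 9.5e-09 and 6.9e-09). The glycosyltransferase Solyc04g074330.3, of a family that attaches sugars to small molecules, had N responses of -1.05 in *sdg33* roots, -1.04 in *sdg34* roots and -0.11 in WT roots, with at most 15 normalized counts in any shoot library.

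Solyc03g096770.1, annotated as a response to low sulfur protein, a small family named in Arabidopsis for its induction under sulfur shortage, had the largest root difference of the 150. It had 18, 14 and 20 normalized counts in *sdg33* roots, 11, 30 and 15 in *sdg34* roots and 1140, 1408 and 1344 in WT roots at +N. At -N it had 48, 42 and 52 in *sdg33* roots, 64, 65 and 32 in *sdg34* roots and 1242, 842 and 1114 in WT roots. The N response of -1.41 in *sdg33* and -1.52 in *sdg34* thus lay on top of a level that was far below WT in both media. In shoots this gene moved the other way between the media, as given below.

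Arogenate dehydratase, Solyc11g066890.1, which completes phenylalanine synthesis, had 765, 709 and 698 normalized counts in *sdg33* roots, 862, 787 and 875 in *sdg34* roots and 2212, 2572 and 2382 in WT roots at +N. At -N it had 2038, 2188 and 2188 in *sdg33* roots, 2340, 2316 and 2558 in *sdg34* roots and 2940, 2874 and 3028 in WT roots, so both mutants were below WT in both media. The 2-oxoglutarate and Fe(II)-dependent oxygenase gene Solyc06g069900.3, of a large family of oxidising enzymes, showed the same order, with 152 to 194 in *sdg33* roots, 155 to 204 in *sdg34* roots and 456 to 510 in WT roots at +N. TAS14, Solyc02g084850.3, a dehydrin induced by abscisic acid and drought, had 113, 91 and 102 in *sdg33* roots, 25, 58 and 70 in *sdg34* roots and 467, 278 and 199 in WT roots at +N. The protease inhibitor and lipid transfer family gene Solyc01g109390.3 was above WT at -N, with 6986, 4886 and 8225 in *sdg33* roots, 7310, 4866 and 5091 in *sdg34* roots and 3172, 2285 and 2826 in WT roots.

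**Figure D3:**
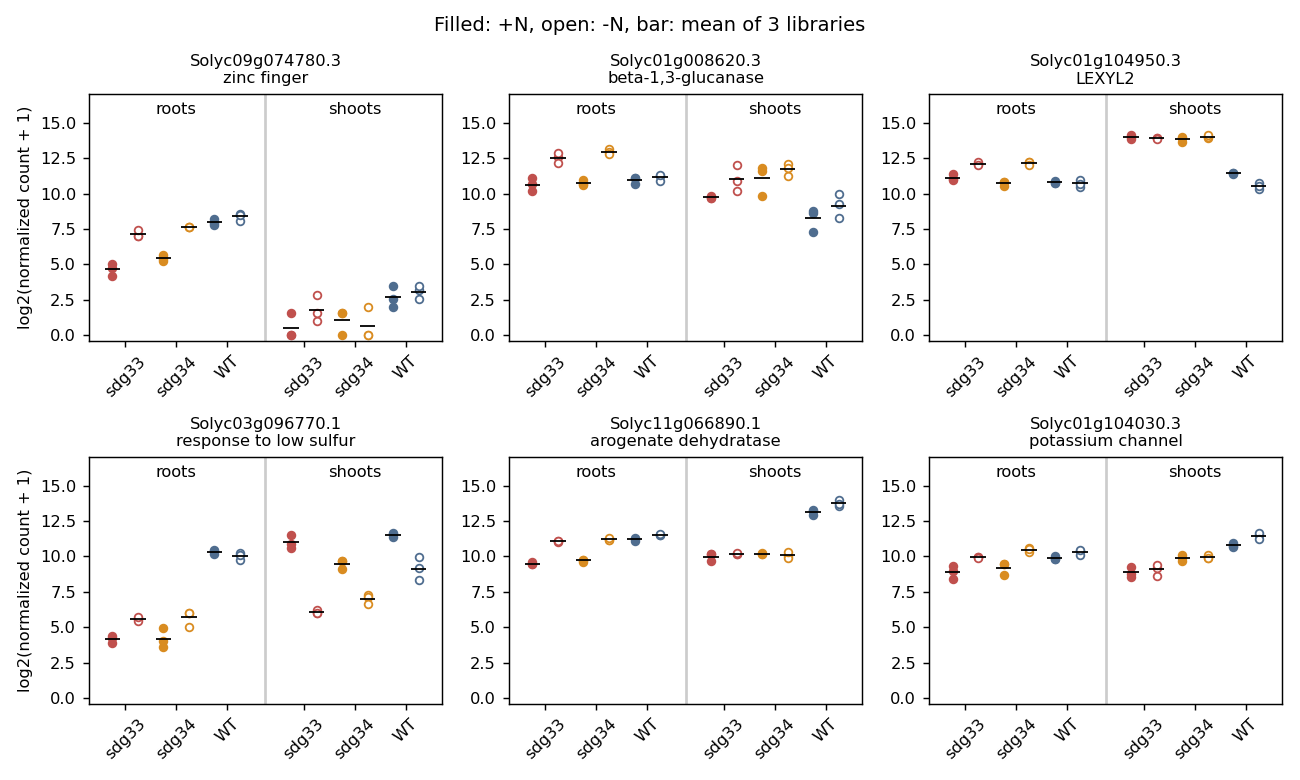
Levels of 6 described genes in all 36 libraries, as log2(normalized count + 1), with *sdg33*, *sdg34* and WT from left to right in roots and then in shoots. Each point is 1 library, filled for +N and open for -N, and bars are means of 3. The zinc finger gene is near 0 in shoots, and the low-sulfur gene lies far below WT in the roots of both mutants.

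Of the genes with the most negative responses, 4 had no description. Solyc01g096140.3 ranked first, with 147, 204 and 216 normalized counts in *sdg33* roots, 184, 174 and 153 in *sdg34* roots and 1750, 1938 and 2044 in WT roots at +N. At -N it had 934, 1254 and 886 in *sdg33* roots, 1494, 1472 and 994 in *sdg34* roots and 2530, 1840 and 2312 in WT roots, and no shoot library held more than 5. Solyc01g104910.3 had N responses of -2.25 in *sdg33*, -2.44 in *sdg34* and 0.22 in WT, and overlapped WT at -N. Solyc06g068520.3 had -2.10, -2.78 and -0.44 in the same order of genotypes, and Solyc04g072780.3 had -2.08, -1.88 and -0.45.

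Averaged over both media, and again as description, the difference from WT was the most negative, after the low-sulfur gene, for Solyc03g114710.3, at -2.38 in *sdg33* and -2.25 in *sdg34*. That gene had 58, 60 and 56 normalized counts in *sdg33* roots, 58, 60 and 44 in *sdg34* roots and 432, 514 and 407 in WT roots at +N, with both mutants below WT. By the mean of both mutants the difference was the most positive for LEXYL2, at 0.86 in *sdg33* and 0.69 in *sdg34*. It was 0.75 in *sdg33* and 0.62 in *sdg34* for the lipid transfer family gene Solyc01g109390.3.

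The root levels of the 2 mutants were also set against each other. The same root libraries chose the genes, so the counts that follow are description and no independent support. Averaged over both media, 4 of the 150 genes were higher in *sdg34* than in *sdg33* (0.457% of all tested genes) and 0 were lower (0.521% of all), by limma at an adjusted p under 0.05. At an unadjusted p under 0.05 there were 29 higher (7.16% of all) and 4 lower (8.66% of all). The 4 genes, picked out after their values were seen, were Solyc03g032080.3 at 0.63, Solyc06g073320.3 at 0.50, Solyc07g053630.3 at 0.48 and Solyc03g093410.3 at 0.30. The count was unstable. It fell to 0 without *sdg33* -N replicate 1 or 2, *sdg33* +N replicate 3 or *sdg34* -N replicate 1 or 2, to 1 without *sdg34* +N replicate 1 or 2, to 2 without *sdg33* +N replicate 1 or 2, and rose to 12 without *sdg34* +N replicate 3.

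The organs were compared in WT. Averaged over both media, 89 of the 150 genes were lower in shoots than in roots and 40 were higher (limma, adjusted p under 0.05), against 44% and 35% of all tested genes. Among the genes open to the choice, which also needed a root mean of at least 50, the shares were 52.2% and 26.4%, close to the 59.3% and 26.7% of the 150. The most root-biased were Solyc08g074690.3, at most 4 normalized counts in any shoot library against 1892 to 3158 in WT roots, and the lipid transfer family gene Solyc01g109390.3. The most shoot-biased were Solyc07g053630.3, higher in shoots by 3.58 ± 0.12, and Solyc06g006080.3, by 3.44 ± 0.10 (SE).

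The question for the shoots was whether nitrogen also lowered these genes there. Values were high enough to test for 129 of the 150, and no untested gene exceeded 15 normalized counts in any shoot library. Nitrogen lowered 33 of the 129 in *sdg33*, 22 in *sdg34* and 33 in WT (limma, adjusted p under 0.05), against 13.8%, 11% and 15.4% of all tested genes. It raised 3 in *sdg33*, 6 in *sdg34* and 6 in WT, against 12.7%, 11.1% and 15% of all tested genes. The raised count fell to 1 in *sdg33* without *sdg33* -N replicate 1 or 2 or *sdg33* +N replicate 3, fell to 3 in *sdg34* without *sdg34* -N replicate 2 or *sdg34* +N replicate 1, and was 10 in WT without WT -N replicate 1. As shares of the 129, the lowered genes made up 25.6% in *sdg33*, 17.1% in *sdg34* and 25.6% in WT, where the genes open to the choice gave 15.8%, 11.7% and 19.7%. The median shoot response was -0.36 in *sdg33*, -0.18 in *sdg34* and -0.17 in WT, against -0.05, -0.04 and -0.04 over all tested genes and -0.08, -0.05 and -0.11 over the genes open to the choice. All 3 libraries at +N lay below all 3 at -N for 49 of the 150 genes in *sdg33* shoots (27% of the 16250 genes), 40 in *sdg34* shoots (24.5%) and 34 in WT shoots (22.6%).

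Nitrogen lowered 8 of the 129 in all 3 genotypes, which 3.71% of all tested genes did. Solyc01g109880.3 had the most negative mean response over the 3 genotypes among genes lowered in at least 2, with 330, 326 and 250 normalized counts at +N against 956, 822 and 940 at -N in *sdg33* shoots, 528, 644 and 448 against 846, 1160 and 841 in *sdg34* shoots, and 971, 1120 and 1027 against 2535, 3626 and 1676 in WT shoots. The media did not overlap in any genotype, and the response was -1.59 ± 0.21 in *sdg33*, -0.81 ± 0.21 in *sdg34* and -1.26 ± 0.21 in WT (SE, limma adjusted p = 1.7e-05, 0.0087 and 0.00014). The *sdg34* call was lost without *sdg34* -N replicate 2, at -0.66, or *sdg34* +N replicate 3, at -0.68. Solyc11g069800.1 responded by -1.15 ± 0.17 in *sdg33*, -1.09 ± 0.17 in *sdg34* and -0.82 ± 0.17 in WT (SE, limma adjusted p = 6.9e-05, 0.00015 and 0.0013).

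**Figure D4:**
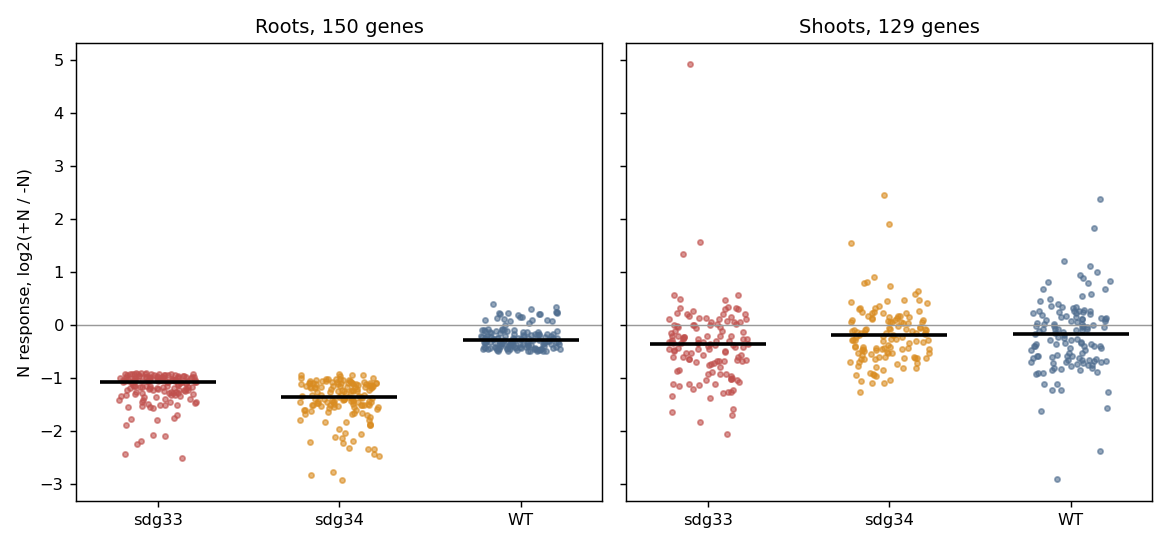
N response, log2 of +N over -N, in roots (150 genes, left) and shoots (129 tested genes, right) for *sdg33*, *sdg34* and WT, each point 1 gene and the bar the median. The root panel shows the values that chose the genes. In shoots the medians are -0.36, -0.18 and -0.17 from left to right, and the highest point is the low-sulfur gene in *sdg33* at 4.93.

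The low-sulfur gene was the only 1 of the 129 called higher at +N in the shoots of all 3 genotypes, which 6.66% of all tested genes were. As stated above, the +N medium also held less sulfate than the -N medium. For this gene, as for the others, an effect of nitrogen and one of sulfate cannot be told apart. It had 1894, 2900 and 1582 normalized counts at +N against 63, 72 and 65 at -N in *sdg33* shoots, 552, 816 and 836 against 157, 143 and 98 in *sdg34* shoots, and 3112, 2595 and 3154 against 576, 316 and 975 in WT shoots. Its response was 4.93 ± 0.30 in *sdg33*, 2.46 ± 0.30 in *sdg34* and 2.39 ± 0.30 in WT (SE, limma adjusted p = 3.1e-09, 7.8e-06 and 5.7e-06). For Solyc03g096770.1 the response in *sdg33* exceeded that of WT by 2.54 ± 0.43 (SE, limma adjusted p = 0.0094), whereas that in *sdg34* differed from WT by 0.08 ± 0.43 (SE, limma adjusted p = 0.94).

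Whether the shoot response of the mutants differed from that of WT was tested as an interaction. It was more negative than in WT for 5 of the 125 genes tested in the 12 *sdg33* and WT libraries, where 1.36% of all tested genes were, and more positive for 1 (0.632% of all). In *sdg34* it was more negative for 6 of 129 (2.83% of all) and more positive for 1 (1.8% of all). The median interaction was -0.18 in *sdg33* and 0.04 in *sdg34*, against 0.00 and 0.02 over all tested genes. For most of the 150 genes a shoot counterpart of the root difference was not detected, which does not show that the responses were alike. The 5 genes in *sdg33* became 1 without *sdg33* -N replicate 1 or 3, *sdg33* +N replicate 2 or WT +N replicate 1 or 3, 2 without *sdg33* -N replicate 2 or WT +N replicate 2, and 3 without *sdg33* +N replicate 3. The 6 in *sdg34* became 3 without *sdg34* -N replicate 1, *sdg34* +N replicate 3 or WT +N replicate 1. The 1 more positive gene in *sdg34* became 2 without *sdg34* -N replicate 3 or WT +N replicate 2, 4 without WT -N replicate 2 and 7 without WT -N replicate 3.

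LEXYL2 was among the genes with a more negative interaction in both mutants, 4 of 125, where 0.976% of all tested genes were. It had 16451, 14560 and 17632 normalized counts at +N against 15792, 15275 and 14728 at -N in *sdg33* shoots, 16451, 12741 and 15713 against 15792, 16072 and 17964 in *sdg34* shoots, and 2736, 2756 and 2703 against 1730, 1281 and 1454 in WT shoots. The WT response of 0.89 ± 0.12 (SE, limma adjusted p = 1.2e-05) was thus met by 0.08 ± 0.12 in *sdg33* and -0.16 ± 0.12 in *sdg34*, at a level far above WT in both media. The interaction was -0.80 ± 0.17 in *sdg33* and -1.04 ± 0.18 in *sdg34* (SE, limma adjusted p = 0.026 and 0.005). The *sdg33* call was lost without any of *sdg33* -N replicates 1, 2 and 3, *sdg33* +N replicate 2 and WT +N replicates 1, 2 and 3, where the value ran from -0.83 to -0.73.

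A more negative shoot response was called in only 1 mutant for Solyc07g006680.1, Solyc04g054370.1 and Solyc10g086500.1, the last with an interaction of -0.93 in *sdg34*. Solyc07g006680.1 had 208, 136 and 194 normalized counts at +N against 665, 770 and 798 at -N in *sdg33* shoots, while WT shoots had 378, 389 and 499 against 543, 512 and 311. Its interaction was -1.99 ± 0.31 in *sdg33* and -0.55 ± 0.30 in *sdg34* (SE, limma adjusted p = 0.0055 and 0.32). Solyc04g054370.1 had 389, 596 and 492 at +N against 1092, 1128 and 794 at -N in *sdg34* shoots, while WT shoots had 606, 556 and 597 against 424, 468 and 520. Its interaction was -1.35 ± 0.24 in *sdg34* and -0.26 ± 0.26 in *sdg33* (SE, limma adjusted p = 0.0062 and 0.65). Whether the mutants differed from each other in these responses was not tested.

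The shoot level, averaged over both media, moved in both directions. In *sdg33* 50 of 125 tested genes were lower and 26 higher than in WT (limma, adjusted p under 0.05), against 27% and 31.1% of all tested genes. In *sdg34* 45 of 129 were lower and 36 higher, against 24.9% and 27.9%. The median was -0.15 in *sdg33* and -0.15 in *sdg34*, and 0.04 and 0.03 over all tested genes. Both mutants were called lower for 39 of 125 genes (21.7% of all tested genes) and higher for 24 (23.9% of all).

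Arogenate dehydratase fell furthest in shoots, with 826 to 1238 normalized counts in *sdg33*, 956 to 1254 in *sdg34* and 7626 to 16451 in WT over both media. For Solyc11g066890.1 the difference was -3.34 ± 0.11 in *sdg33* and -3.31 ± 0.10 in *sdg34* (SE, limma adjusted p = 1.3e-11 and 4e-12). TAS14, Solyc02g084850.3, was also lower, with a difference of -2.80 ± 0.28 in *sdg33* and -2.89 ± 0.29 in *sdg34* (SE, limma adjusted p = 1e-06 and 1.1e-06). LEXYL2, Solyc01g104950.3, rose by 2.97 ± 0.08 in *sdg33* and 2.97 ± 0.09 in *sdg34* (SE, limma adjusted p = 3.5e-12 and 3.1e-12). The beta-1,3-glucanase Solyc01g008620.3 rose by 1.69 ± 0.33 in *sdg33* and 2.69 ± 0.36 in *sdg34* (SE, limma adjusted p = 0.00058 and 2.1e-05).

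The auxin induced-like gene Solyc07g048070.3 was of opposite sign in the 2 organs. It had 278, 131 and 294 normalized counts in *sdg33* roots, 185, 273 and 207 in *sdg34* roots and 614, 638 and 623 in WT roots at +N. In shoots at +N it had 58, 52 and 50 in *sdg33*, 100, 154 and 68 in *sdg34* and 16, 9 and 21 in WT, and both mutants lay above WT with no overlap. Averaged over both media the shoot difference was 1.79 ± 0.25 in *sdg33* and 2.32 ± 0.27 in *sdg34* (SE, limma adjusted p = 2.8e-05 and 5.5e-06).

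**Figure D5:**
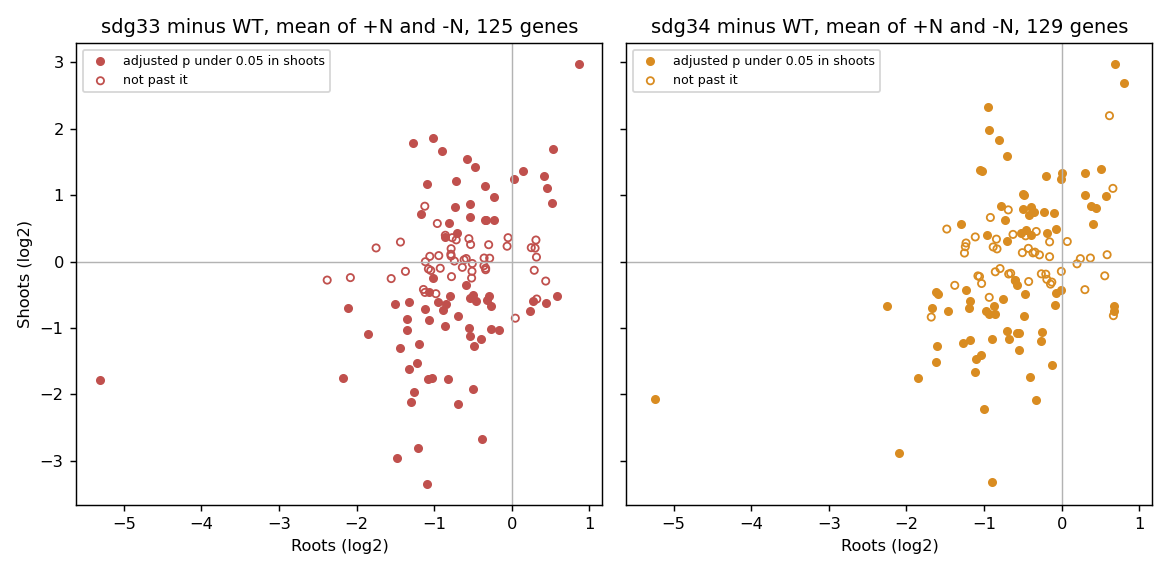
Difference from WT averaged over both media (log2) in shoots (vertical axis) against roots (horizontal axis), *sdg33* left (125 genes) and *sdg34* right (129 genes), filled where the shoot adjusted p was under 0.05. Root values, from the libraries that chose the genes, lie mostly below 0. Shoot values lie on both sides, from -3.34 for arogenate dehydratase to 2.97 for LEXYL2 in *sdg33*.

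Of the study's nitrogen and auxin genes, 6 were looked up by identifier, namely NRT1.1, another nitrate transporter, nitrite reductase and 3 SAUR-like genes. None of these could be among the 150, because the choice required an absolute WT root response under 0.5. Their WT root responses ran from 0.71 for NRT1.1 to 7.64 for the other nitrate transporter. NRT1.1, Solyc08g078950.3, the homolog of an Arabidopsis nitrate transporter and sensor, had root N responses of -0.47 in *sdg33*, -0.43 in *sdg34* and 0.71 in WT. Its mean root values were 13136, 13693 and 5117 normalized counts at -N and 9526, 10230 and 8301 at +N, in that order of genotypes. Nitrite reductase, Solyc10g050890.2, had root N responses of 4.78 in *sdg33*, 5.09 in *sdg34* and 2.69 in WT. Its mean root values were 1265, 1107 and 4870 at -N and 33462, 36859 and 31060 at +N, in the same order.

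On the chromosomes, as read from the gene identifiers, the 150 genes were spread over the genome. Chromosome 3 held 23 and chromosome 1 held 22, or 1.93% and 1.54% of their genes open to the choice, and chromosome 12 held the lowest share, 0.665%. Within 10 listed genes of each other lay 12 pairs, among them the glucanase and GDP-mannose transporter genes Solyc01g008620.3 and Solyc01g008690.3, and 2 pairs were direct neighbours. These pair counts were not compared with those of other genes, so clustering was not tested.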

How the data were processed

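The authors mapped trimmed reads to the tomato genome (build 3.0) with BBmap and counted them per gene model (ITAG3.2) and miRNA locus with featureCounts, and used DESeq2 for their own tests. The deposited values are a score: whole numbers that the authors normalized, with identical sorted values in all 36 libraries, which matches full quantile normalization. They are not raw counts and depth is unknown, so no count model was used. Here values were tested as log2(value + 1) with limma 3.58.1 (variance trend) in R 4.3.3, on genes with at least 10 in at least 3 libraries, with Benjamini-Hochberg adjustment over all genes tested and a threshold of 0.05. The N response in shoots used 18 libraries in 1 fit, and the other contrasts 12. Fits of mutant against WT in roots use the same libraries that chose the genes, so their calls are not given as results. They do enter the totals of alternative values for named genes below. Fits were tested on simulated data. Fold changes of low genes are understated on this scale.

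The members and lists were chosen with earlier results of these data known. Named genes were the 6 with the most negative rule value, the 3 on each side of its edge, all 15 described members, and for each test the 2 leading members in each direction (for mutant against WT in roots, by that fit), or by smallest adjusted p for the interaction. Alternatives were a pseudocount of 10, no filter, rescaling by median of ratios, a replicate block, all 18 libraries of the organ, and each library left out in turn. Gene sequences were not used here.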

Additional observations from a re-analysis of the deposited data

Results flagged for a closer look

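These results were singled out because the shoot response to nitrogen in a mutant differed from that in WT in the interaction test by limma, at an adjusted p under 0.05. Values are mutant minus WT differences in log2 response. In *sdg33* the interaction was -1.99 for Solyc07g006680.1, -1.73 for Solyc09g075260.3, -1.21 for Solyc07g053630.3, -1 for Solyc01g009860.3, -0.80 for LEXYL2 (Solyc01g104950.3) and 2.54 for the low-sulfur gene Solyc03g096770.1. In *sdg34* it was -1.95 for Solyc09g075260.3, -1.35 for Solyc04g054370.1, -1.04 for LEXYL2, -1.04 for Solyc01g009860.3, -0.93 for Solyc10g086500.1, -0.88 for Solyc07g053630.3 and 4.82 for Solyc08g066890.3.

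Solyc09g075260.3 had 158, 138 and 83 normalized counts at +N against 234, 240 and 284 at -N in *sdg33* shoots, 110, 142 and 71 against 298, 235 and 222 in *sdg34* shoots, and 314, 220 and 182 against 107, 129 and 216 in WT shoots. The value for Solyc08g066890.3 rests on low levels, with 12, 18 and 17 at +N against 2, 3 and 6 at -N in *sdg34* shoots, and 0, 0 and 2 against 7, 19 and 7 in WT shoots.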

How the results depend on the processing

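For named genes, no alternative reversed the direction where the main or the alternative value was called. Values called in neither were not compared for direction. Of 2506 alternative values for 133 tests of named genes, 2447 kept their side of the threshold, 30 lost the call and 29 gained it. These totals include root fits of mutant against WT, which are tied to the choice. The choice itself returned 136 of the 150 genes with a pseudocount of 10, 148 after rescaling by median of ratios and 128 to 146 with 1 root library left out. Within roots, same-numbered libraries of different groups shared little deviation, with a median correlation of 0.039. Of 45 such pairs 7 exceeded 0.1, and the highest was 0.257. Roots were not checked against shoots for pairing, and the organ comparison in WT treated them as unpaired. With the replicate block, the genes higher in *sdg34* than in *sdg33* roots numbered 7 in place of 4 and the lower ones 1 in place of 0, and the more positive shoot interactions in *sdg34* 2 in place of 1. With all 18 libraries in 1 fit these became 10, 1 and 2, and the more positive interactions in *sdg33* 2. With 1 library left out, the shoot N response was higher for 1 to 4 and lower for 28 to 40 genes in *sdg33*, 3 to 7 and 15 to 25 in *sdg34*, and 4 to 10 and 22 to 37 in WT. The interaction was more positive for 1 gene and more negative for 1 to 7 in *sdg33*, and for 1 to 7 and 3 to 9 in *sdg34*. Between the mutants 0 to 12 were higher and 0 lower. The depth behind each value is unknown, so counting error could not be given.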

Other observations

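Solyc03g083320.3 was, after the low-sulfur gene, the one with the highest mean shoot response among the 3 genes that nitrogen raised in at least 2 genotypes. Its levels were low, with 18, 26 and 34 normalized counts at +N against 6, 8 and 10 at -N in *sdg33* shoots and 26, 8 and 16 against 10, 2 and 4 in *sdg34* shoots. Its response was 1.57 in *sdg33*, 1.55 in *sdg34* and 1.12 in WT (limma adjusted p = 0.03, 0.037 and 0.11). The *sdg33* call was lost without *sdg33* -N replicate 1 or 2 or *sdg33* +N replicate 2 or 3, at 1.36 to 1.58, and the *sdg34* call without *sdg34* -N replicate 2 or 3 or *sdg34* +N replicate 1 or 3, at 1.11 to 1.51. With a pseudocount of 10 the *sdg34* response was 0.78 and not called, while the WT response was 0.76 and called, and without the filter on low values the *sdg34* response was 1.55 and not called.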
